A study of Mus musculus with 6 samples.

Results

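The miR-29 family was followed in cultured mouse vascular smooth muscle cells (VSMCs) with and without TNF-α, an inflammatory cytokine. Its members were the array reporters named mmu-miR-29a, mmu-miR-29b, mmu-miR-29c, mmu-miR-29a* and mmu-miR-29b-2*, which are 5 of the 1078 reporters on each array, and they were picked by name for their known repression of matrix genes. Under these older miRBase names an asterisk marks the minor arm of a hairpin. The labels give the source as abdominal aorta of C57BL/6 mice, 8 weeks old, with harvest after several passages in culture. Cultures left untreated (control, n = 3) were compared with cultures given TNF-α (n = 3), each grown separately. No dose or duration of TNF-α is stated. Total RNA was tailed, tagged and stained with Cy5, so each array has 1 colour and gives 1 scanner density per reporter.

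A miRNA is cut from the stem of a hairpin precursor, and the arm that is loaded into an Argonaute protein pairs with target mRNAs mainly through its seed, the short stretch near its 5′ end. The miR-29 family is best known as a brake on the extracellular matrix. Its targets include mRNAs of fibrillar collagens, elastin and fibrillin, and a lower miR-29 level goes with more collagen in many fibrotic tissues. In the aortic wall, where smooth muscle cells make collagen and elastin, the family has been studied in aneurysm.

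All 5 members matched a mature sequence in RefSeq (build GRCm38.p6). The 3 members from the 3p side of their hairpins (3p arms) differ at few bases. They are shown because miR-29b and miR-29c passed the test for a change and miR-29a did not. Capitals mark the seed, bases 2 to 8.
miR-29a: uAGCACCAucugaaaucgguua
miR-29b: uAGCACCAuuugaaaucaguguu
miR-29c: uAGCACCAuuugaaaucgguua
All 3 carry the same seed, AGCACCA, and no other of the 1679 mature miRNA names in the RefSeq table does. Counted from the 5′ end, miR-29a and miR-29c differ at 1 of 22 positions, C10U (miR-29a first). miR-29c and miR-29b are identical over their first 17 bases and then differ at G18A, U21G and A22U (miR-29c first), and miR-29b is 1 base longer. The probe sequences were not used here, and how far a probe for 1 member also binds another was not tested.

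The minor arms come from the 5p side and carry other seeds. Beside the 2 members, miR-29b-1* is printed although it is not a member.
miR-29a*: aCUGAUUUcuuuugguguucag
miR-29b-2*: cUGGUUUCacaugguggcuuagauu
miR-29b-1*: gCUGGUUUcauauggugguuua
miR-29a* is shown as the other arm of the miR-29a hairpin, and miR-29b-1* and miR-29b-2* because they differ between the hairpins of miR-29b. The 3p sequence of miR-29b is the same from both of its hairpins, so its reporter cannot tell them apart.

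The 4 hairpins lie in pairs at 2 loci. On chromosome 6, minus strand, Mir29a and Mir29b-1 lie within chr6:31062660-31063093 with 275 bases between them, and no other gene of the RefSeq table overlaps them. On chromosome 1, plus strand, Mir29b-2 and Mir29c lie within chr1:195037040-195037634, 426 bases apart and inside the span of the long noncoding RNA gene A330023F24Rik. The table gives no exons, so exonic or intronic position was not determined. The mature arms are at chr6:31062673-31062694 for miR-29a, chr1:195037600-195037621 for miR-29c, and chr6:31063025-31063047 and chr1:195037091-195037113 for miR-29b.

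The arrays of the 2 groups differed in background. The background peak, the density at which most dim reporters lie, was 66.3 to 75.6 in the control set and 80.9 to 89.6 in the TNF-α set. A background limit was set for each array at the peak plus 3 SD of the values below it, and ran from 89.3 to 101 for controls and from 115 to 127.9 for TNF-α. No slide or scan run is named, so what the array sets differ in technically and what the treatment did cannot be told apart. The smooth muscle miRNAs miR-143 and miR-145 were above the limit on all arrays. None of 5 epithelial markers was above it on any array, and of 6 blood cell markers miR-150 alone was, on 2 control arrays. The endothelial miR-126-3p was above the limit on all arrays but dim, with summed heights above the background peak for the 2 endothelial markers of 47.0 to 81.8 in controls and 35.7 to 54.5 with TNF-α. Of 3 striated muscle markers measured, miR-206 was above it on all arrays and miR-133b on 2 control arrays. miR-206 had mean densities of 257 ± 19.9 (control) and 189 ± 17.7 (TNF-α; SD, n = 3 each), and the summed heights of the 3 were 216 to 236 in controls and 115 to 157 with TNF-α. What part these shifts have in the values of the miR-29 family was not tested.

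TNF-α cultures had higher miR-29b and miR-29c than control cultures, while miR-29a and the minor arms did not pass the test. In the fit over 642 tested reporters, all 5 members were tested, 2 rose and 0 fell. The minor arms miR-29a* and miR-29b-2* reached the filter's corrected density of 32 on all TNF-α arrays but not on all control arrays. The filter asked for 3 arrays of any group, so the TNF-α set, with its higher background, was enough to admit them. Over all tested reporters 12.9% rose and 9.81% fell at an adjusted p under 0.05 in limma, and of the 209 above the background limit on all 6 arrays, where miR-29a, miR-29b and miR-29c belong, 18.7% rose. The total of 146 changed reporters (83 higher, 63 lower) fell to between 70 and 91 without any 1 of the 6 arrays, and the split depended on scaling, with 163 higher and 41 lower without normalization, 294 and 25 with median scaling, 57 and 97 when arrays were set to the median of tested reporters, and 39 and 81 in the authors' processed table. Because each array read RNA of a whole culture, more cells holding a miRNA and more of it per cell cannot be told apart.

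miR-29b, the member with the largest rise, had densities of 263, 237 and 220.0 on control arrays 1, 2 and 3 and of 354, 399 and 308 on TNF-α arrays 1, 2 and 3. Every TNF-α array was above every control array, with a gap of 45.6 between the lowest TNF-α and the highest control density. The same held for 19.6% of the 209 reporters above the background limit on all arrays. The file gives a standard deviation of 20.9 to 42.5 with each of these densities, over what is not stated. The group means of the linear densities were 240.0 ± 21.4 (control) and 354 ± 45.2 (TNF-α; SD, n = 3 each). Measured as height above each array's background peak, which removes the difference in background, the means were 169 ± 19.3 and 267 ± 40.9, a ratio of 1.58.

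On the normalized scale, log2 of background-corrected density plus 50 after quantile normalization, miR-29b rose by 0.60 ± 0.08 (SE, n = 3 per group; 95% interval 0.43 to 0.78; adjusted p = 0.00227, limma), which is 1.52-fold (1.35 to 1.72). The added 50 shrinks the log2 change of a reporter so dim, and the change was 0.71 with only 8 added. Scaling moved it both ways, to 0.69 with median scaling and 0.55 without normalization. It was 0.39 when arrays were set to the median of tested reporters. Whether 0.60 is too low or too high was not tested. The normalized values of the groups did not overlap. A gap of that kind, with TNF-α higher, was present for 20.4% of all tested reporters and for 23.0% of those above the limit on all arrays. Only 8 of the 642 tested reporters had a larger rise.

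miR-29c, the partner of miR-29b-2 in the chromosome 1 locus, had densities of 1438, 1438 and 1184 in control replicates 1, 2 and 3 and of 1811, 1897 and 1439 with TNF-α. The groups did not overlap, but TNF-α replicate 3 stood only 1.19 above the highest control array, against a deposited standard deviation of 113 for that reading. Non-overlap of densities with TNF-α higher was seen for 19.6% of the 209 reporters above the background limit on all arrays. TNF-α replicate 3 and control replicate 3 were the lowest of their groups for miR-29a, miR-29b and miR-29c alike. Group mean densities were 1353 ± 147 (control) and 1716 ± 243 (TNF-α; SD, n = 3 each), and the ratio of heights above the background peak was 1.27.

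After normalization the groups stood further apart for miR-29c, with 10.30 to 10.40 in controls and 10.62 to 10.99 with TNF-α on the log2 scale. It rose by 0.43 ± 0.10 (SE; 95% interval 0.21 to 0.66; adjusted p = 0.0175, limma), or 1.35-fold. Its call was lost without control replicate 1 (0.39, adjusted p = 0.0671, limma), without normalization (0.34) and when arrays were set to the median of tested reporters (0.18, adjusted p = 0.268, limma).

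miR-29a, which has its seed in common with both and comes from the chromosome 6 locus, did not pass in either direction. Its densities were 14744, 13833 and 11967 on control arrays and 14622, 15597 and 13960.3 on TNF-α arrays. The groups overlapped, since 2 of the 3 TNF-α arrays lay below control replicate 1. The means were 13515 ± 1415 (SD, n = 3) and 14727 ± 824, a ratio of 1.09. The normalized change was -0.04 ± 0.07 (SE; 95% interval -0.21 to 0.13; adjusted p = 0.701, limma). At this brightness quantile normalization works on few ranks, and miR-29a took only the values 13.73, 13.78 and 13.91 over the 6 arrays. The sign of its change depended on the scaling, with 0.13 without normalization, 0.07 with cyclic loess and 0.27 with median scaling, none past the threshold. The scale that gave 0.27 also moved the median of all tested reporters to 0.29, so relative to that median miR-29a was at -0.01, whereas in the authors' processed table it was at 0.23 relative to a median of -0.12.

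**Figure D1:**
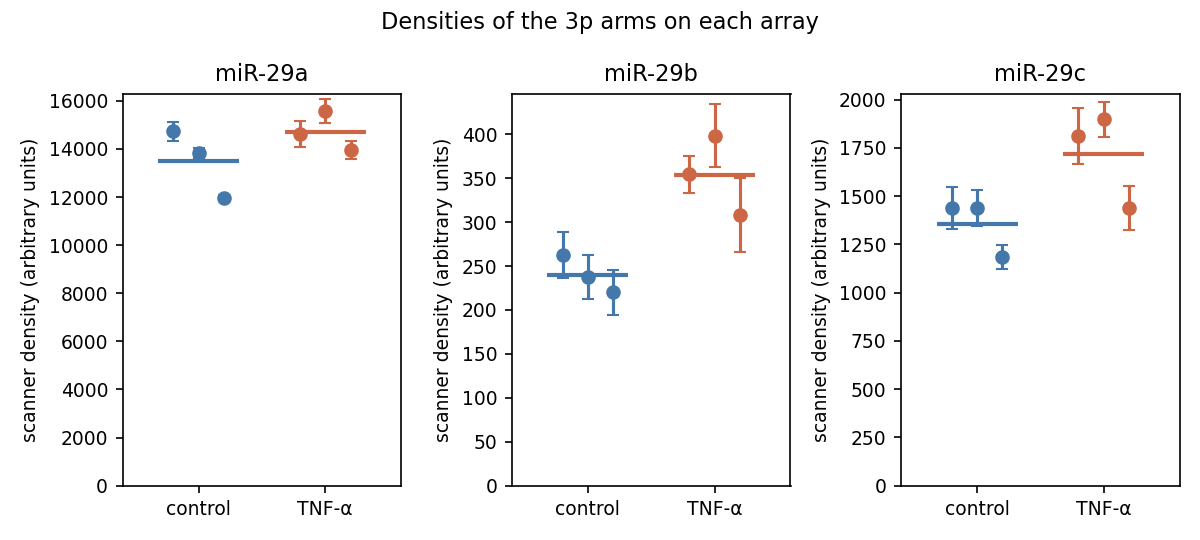
Scanner density (arbitrary units, linear axis from 0) of miR-29a, miR-29b and miR-29c on each array. Points are arrays in the order of replicates 1 to 3, vertical bars are the standard deviations the files give with each density, and horizontal lines are group means (n = 3). The groups overlap for miR-29a, stand 45.6 apart for miR-29b, and nearly touch for miR-29c, where TNF-α replicate 3 read 1439.

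The minor arms were at background on all arrays. miR-29a*, cut from the same hairpin as miR-29a, read 86.5, 74.3 and 71.5 on control arrays and 111, 96.0 and 87.7 on TNF-α arrays. These densities did not overlap, but the background peaks did not overlap either, and every value was below the background limit of its own array. Over all 1078 reporters 38.2% had TNF-α densities that were all above the control ones. Once the arrays were normalized the groups overlapped and the change of miR-29a* was 0.12 ± 0.09 (SE; adjusted p = 0.422, limma). It passed as higher without normalization (0.31, adjusted p = 0.0418, limma) and with median scaling (0.45, adjusted p = 0.0149, limma), where the medians of all tested reporters were 0.14 and 0.29. No fold is given, because neither group exceeded the limit.

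miR-29b-2*, the minor arm of the chromosome 1 hairpin of miR-29b, read 92.0, 89.8 and 74.2 on control arrays and 104, 91.9 and 89.1 on TNF-α arrays. The groups overlapped, and on no array was it above the limit, with control replicate 1 the closest (density minus limit, -1.07). Its normalized change was -0.07 ± 0.08 (SE; 95% interval -0.27 to 0.12; adjusted p = 0.572, limma), and it was 0.12 without normalization and 0.26 with median scaling. The remaining minor arms of the family, miR-29b-1* and miR-29c*, are not members but share the hairpins. They were below the limit on all 6 arrays too and changed by -0.01 ± 0.07 and -0.04 ± 0.07. Their corrected densities also reached 32 on all TNF-α arrays but not on all control arrays. At this depth of signal the minor arms do not tell which of the 2 hairpins the higher miR-29b came from.

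**Figure D2:**
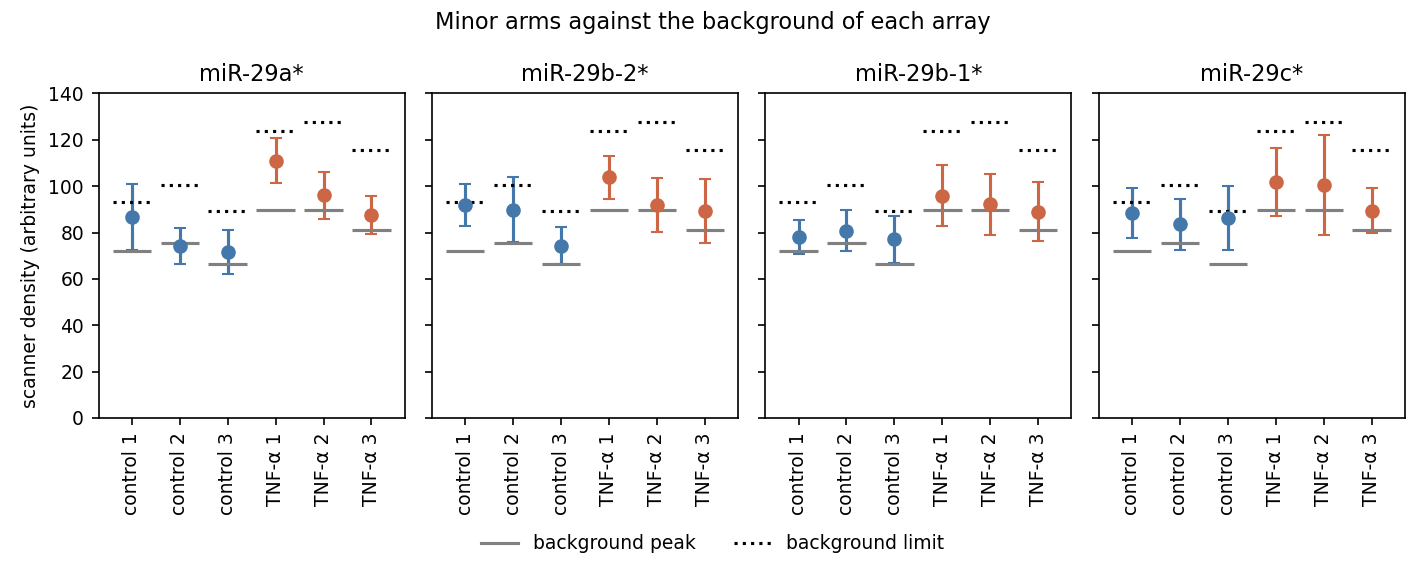
Scanner density (arbitrary units, linear axis) of the 4 minor arms on each array, with the background peak (grey line) and the background limit (dotted line) of that array. Points are densities and bars the deposited standard deviations. The grey lines are higher on all TNF-α arrays than on control arrays, and so are the points of miR-29a*, miR-29b-1* and miR-29c*. The points of miR-29b-2* overlap between the groups. No point reaches its dotted line.

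Whether the members responded differently was tested within arrays, by the difference of normalized log2 values of 2 reporters on the same array. With 3 arrays against 3 the two-sided exact permutation test cannot go below p = 0.1, so none of the 4 pairs compared could pass 0.05. The response of miR-29b exceeded that of miR-29a by 0.65 ± 0.06 (SE; 95% interval 0.48 to 0.82; exact permutation p = 0.1, adjusted 0.133). On all TNF-α arrays the difference lay between -5.34 and -5.18, and on all control arrays between -6.00 and -5.89, so the groups did not overlap. The response of miR-29c exceeded that of miR-29a by 0.48 ± 0.13 (interval 0.13 to 0.83; exact permutation p = 0.1), without overlap on this quantile-normalized scale.

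These gaps were smaller without normalization, at 0.42 for miR-29b over miR-29a and 0.21 for miR-29c over miR-29a. They were positive under all 14 alternatives run for them. Not all 14 are separate, since scaling a whole array cancels in a difference within it. Median scaling and the median of tested reporters thus gave the unnormalized values again. For miR-29c over miR-29a the groups overlapped without normalization and in the authors' processed table, where TNF-α replicate 3 lay below control replicate 2. miR-29b and miR-29c were closer to each other, with a difference in response of 0.17 ± 0.07, an interval of -0.02 to 0.36 and overlapping groups (exact permutation p = 0.2). That interval leaves room for responses that are alike and for a response of miR-29b that is larger by up to 0.36. For the fourth pair, miR-29a and its own minor arm miR-29a*, no difference in response is read, because miR-29a* was below the limit on all 6 arrays.

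**Figure D3:**
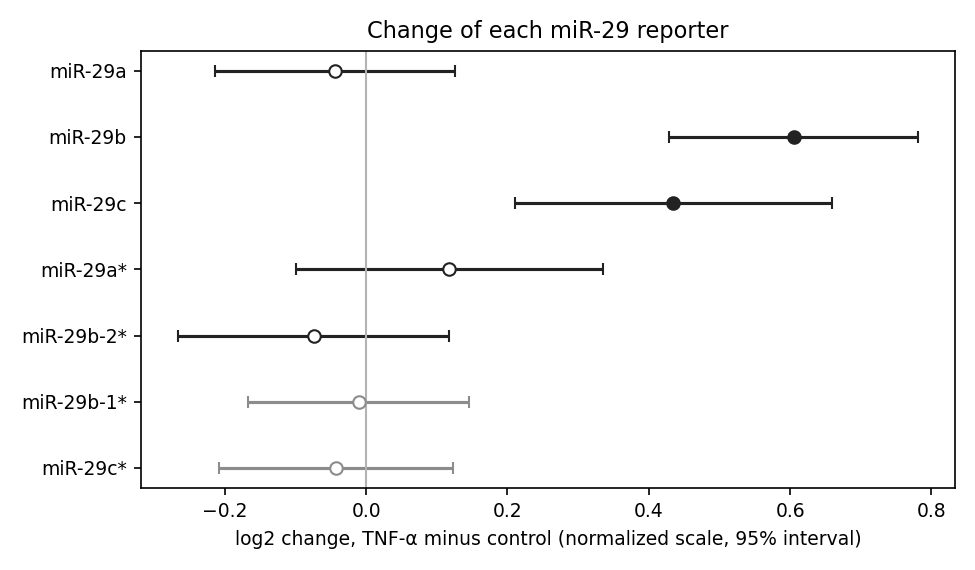
Change of each miR-29 reporter, TNF-α minus control, on the log2 scale after quantile normalization, with 95% intervals from limma (n = 3 per group). Filled points passed an adjusted p of 0.05, and grey marks the 2 reporters of the family that are not members. The intervals of miR-29b (0.43 to 0.78) and miR-29c (0.21 to 0.66) lie above 0 and all others cross it.

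The rise of miR-29b passed under all 19 alternative ways of processing, with changes of 0.39 to 0.71. In the authors' processed table it read 193, 168 and 166 in controls and 271, 306 and 240.1 with TNF-α. miR-29c passed under 16 of the 19, with 0.18 to 0.55 over all of them. In the processed table miR-29c read 1362, 1369 and 1177 in controls and 1727, 1783 and 1423 with TNF-α, and changed by 0.33 (adjusted p = 0.0391, limma). miR-29a changed by -0.08 to 0.27 and passed under none. Relative to the median of all tested reporters, miR-29b was at 0.60 as reported, at 0.41 in densities left unnormalized and at 0.67 in the authors' table. For miR-29c the corresponding values were 0.43, 0.20 and 0.45.

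**Figure D4:**
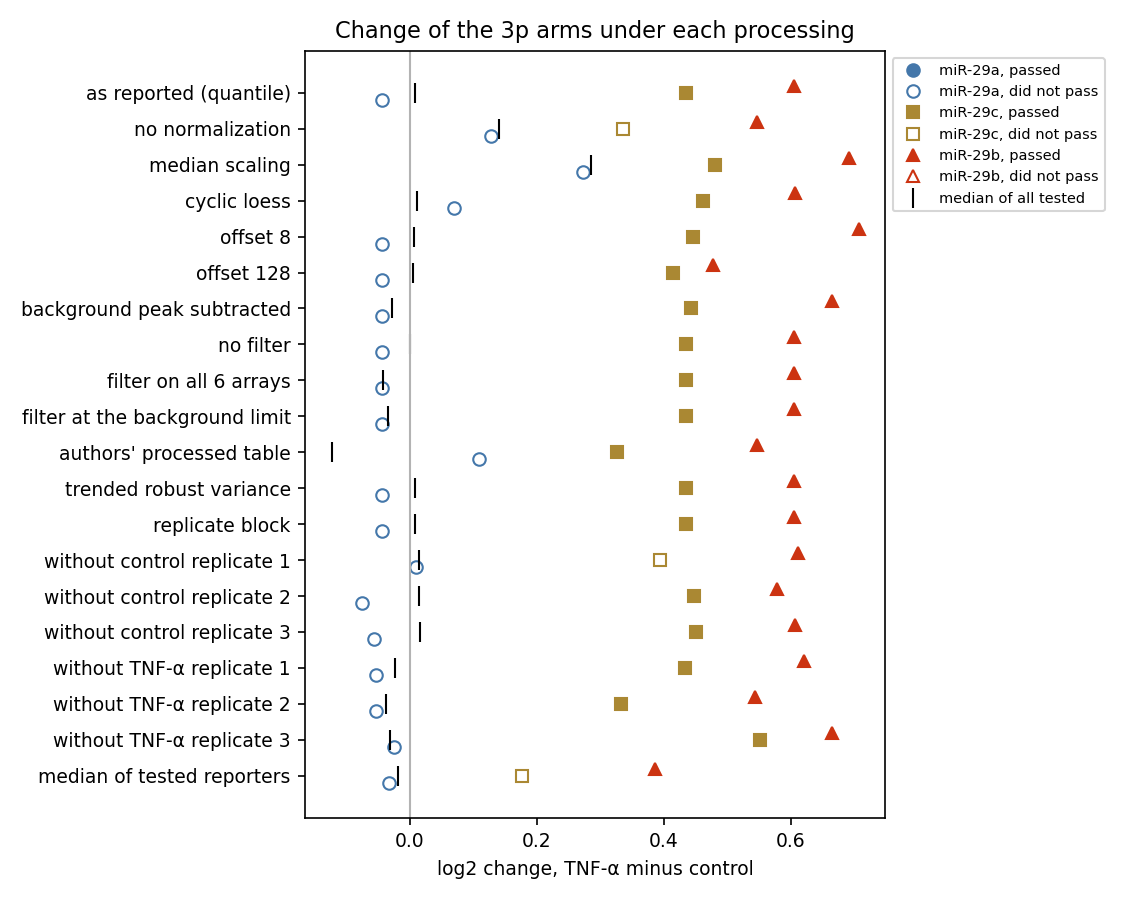
Change of miR-29a, miR-29b and miR-29c (log2, TNF-α minus control) under the processing reported and each of 19 alternatives. Filled symbols passed an adjusted p of 0.05 in limma, open symbols did not, and black ticks are the median change of all tested reporters under that setting. miR-29b is filled throughout, miR-29c is open in 3 settings, and miR-29a is open throughout.

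Likeness to other miRNAs was measured as the root mean square difference of mean-centred log2 values over the 6 arrays, among 206 reporters outside the family that exceeded the background limit on all arrays. The same 6 arrays carry the difference between the groups, so reporters near a member have a change near that of the member by choice, and their changes are given with no test. Nearest to miR-29b were miR-690 (0.04), miR-34a (0.08), a target of p53, and miR-30d (0.09), with changes of 0.63, 0.55 and 0.71. Nearest to miR-29c were miR-199a-5p (0.09), miR-466a-3p (0.10) and miR-15b (0.11), with changes of 0.42, 0.27 and 0.41. Nearest to miR-29a were miR-466g (0.03), miR-669n (0.05) and miR-705 (0.05). The neighbours moved with the scaling. Of the 3 of miR-29a, 0 recurred without normalization, with median scaling or with cyclic loess. For miR-29b 0 recurred without normalization and with median scaling and 2 with cyclic loess, and for miR-29c the counts were 1, 1 and 0.

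Among 24 other miRNAs described as acting on collagen, elastin, connective tissue growth factor, matrix proteases or fibrosis, 20 were tested, 3 rose and 1 fell, with a median change of -0.05 against 0.01 over all tested reporters. The share called, 20%, was close to the 22.7% of all tested reporters called in either direction. The 4 that passed were miR-30d, miR-30a, miR-30b and miR-199a-5p. Of the 5 miR-30 miRNAs tested, which target connective tissue growth factor mRNA, 2 passed as higher and 1 as lower, while miR-30c (-0.07 ± 0.09) and miR-30e (-0.16 ± 0.07) did not pass. miR-30d rose by 0.71 ± 0.07 (SE; adjusted p = 0.000979, limma), from a density of 492 ± 77.5 (SD, n = 3) to 688 ± 26.4, and lost its call at the median of tested reporters (0.33). miR-30a passed with 0.24 ± 0.06 (adjusted p = 0.0318, limma), but this call was lost under 12 of 19 alternatives, and at the median of tested reporters the value was -0.12. miR-30b fell by 0.36 on the log2 scale (SE 0.07; adjusted p = 0.00837, limma), from 860 ± 103 to 594 ± 45.9. miR-199a-5p, a miRNA linked to fibrosis, rose by 0.42 ± 0.08 (SE; adjusted p = 0.0102, limma), from 1152 ± 62.2 to 1394 ± 152, but lost its call without normalization (0.27), in the processed table (0.24) and at the median of tested reporters (0.11). miR-143 and miR-145, the smooth muscle pair, were at -0.05 ± 0.09 and 0.17 ± 0.09 and did not pass.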

How the data were processed

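For each array the authors deposited a median density and a standard deviation per reporter, linear intensities per the file headers, with background not subtracted as the values show. A second deposited table holds processed intensities. Its scaling between arrays is unknown, and it served as an alternative. Scanner and software are not given in the sources used. The densities were corrected with normexp, 50 was added, and log2 values were quantile normalized in limma 3.58.1 under R 4.3.3. Reporters with a corrected density of at least 32 on at least 3 arrays were fitted with group as the only term (lmFit, eBayes), and p-values, two-sided, were adjusted by Benjamini-Hochberg across the tested reporters and called at 0.05. The procedure was run on simulated data with planted changes larger than those of the members. How well it calls changes of their size was not tested.

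The members and lists were chosen with earlier results of these data known. Named by rule were the members, the other arms of their hairpins and the 3 reporters nearest in pattern to each 3p arm. The 4 matrix-list miRNAs of smallest p were also named by rule. Neighbours by density, also in the rule, are left out because densities of different probes are not comparable. Scaling to the median of tested reporters was added after seeing the data. Sequences are from RefSeq. No pair of arrays was identical. The number of arrays limits the precision. The limma p-values rest on the spread between arrays within a group, moderated over the tested reporters. That spread holds differences between cultures, which the labels call biological replicates, and between arrays together.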

Additional observations from a re-analysis of the deposited data

How the results depend on the processing

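Of 19 alternatives, the rise of miR-29b kept its direction and its call under all. Changes of the filter or the variance model and the replicate block leave its estimate at 0.60, so only the call could change there. The number of changed reporters was 319 with median scaling and 70 to 91 with 1 array left out. It was within 1.5 times the 146 under the others. Fewer reporters were tested with 1 array left out, 500 without a TNF-α array and 614 to 626 without a control array. With 1 array left out 1 to 2 of 5 members passed, all as higher, against 37 to 56 higher of 500 to 626 reporters. At the median of tested reporters 1 of 5 passed, against 57 higher of 642. With median scaling 3 of 5 passed, against 294 higher of 642. Only 3 members were tested with the background peak subtracted, the filter on all 6 arrays, the filter at the background limit or the authors' table, and 2 passed in each. The reporters called higher there were 51 of 270, 50 of 339, 52 of 293 and 39 of 285. miR-29c was no longer called without normalization (0.34), at the median of tested reporters (0.18) and without control replicate 1, with 0.33 to 0.55 over the arrays left out in turn; miR-29a* was called without normalization (0.31) and with median scaling (0.45). miR-29a changed sign without normalization (0.13), with median scaling (0.27), with cyclic loess (0.069), in the authors' table (0.11) and without control replicate 1 (0.0098, the highest over arrays left out in turn, with -0.076 the lowest), and miR-29b-2* without normalization (0.12) and with median scaling (0.26). Among reporters outside the family, miR-30a was at -0.12 at the median of tested reporters. Why these values moved was not tested. The 3 differences in response among miR-29a, miR-29b and miR-29c kept their sign under the 14 alternatives run for them. Of these alternatives, median scaling and the median of tested reporters repeat the unnormalized differences by construction.

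With the replicate number as a block 103 reporters were called (146 without it), and miR-29b (0.60, adjusted p = 0.0214, limma) and miR-29c (0.43, adjusted p = 0.0385, limma) stayed called. Deviations of arrays of the same number had correlations of 0.04, 0.02 and 0.15, and those of arrays of different number -0.13 to 0.10. The numbers in the sample descriptions repeat within the TNF-α group. With so few arrays these values cannot tell whether samples of the same number were prepared together. Signal over background limits the minor arms, none of which exceeded the limit on any array.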
